A study of Mus musculus with 57 samples.

Results

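Blastocysts labelled heterozygous (HET) for Taf12 or for Taf13 were set against wild-type (WT) blastocysts of the same line, to see whether 1 altered copy of either gene left a trace in the transcriptome at embryonic day 3.5 (E3.5). The embryos were taken by their labels: 5 Taf12 HET, 5 Taf12 WT, 4 Taf13 HET and 4 Taf13 WT, which makes 18 of the 57 single-embryo RNA-seq libraries of the series. None was treated, and no label names an allele or background beyond the genotype and a knockout design, or says whether embryos shared a litter, which limits every p-value to the spread among these embryos. Each embryo was lysed and sequenced by itself, so a lower value can mean fewer cells of a type or less RNA per cell, and these cannot be told apart. Homozygous mutant embryos (MUT, 3 of each line at E3.5), Taf12 outgrowths (3 HET, 4 WT; blastocysts grown for 72 h in dishes) and Taf13 embryos at E6.5 (9 HET, 4 WT) are drawn on only for side values.

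TAF12 and TAF13 both belong to TFIID, the promoter-recognition complex that contains the TATA-binding protein (TBP) and binds the core promoter of protein-coding genes before RNA polymerase II is recruited. Most TBP-associated factors carry a histone fold and join in pairs: TAF12 binds TAF4 within TFIID, and TAF13 binds TAF11. TAF12 is also part of SAGA, a coactivator with histone acetyltransferase and deubiquitinase modules, where it binds TADA1. A blastocyst holds the outer trophectoderm, which forms the placenta, and an inner cell mass of epiblast and primitive endoderm.

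The 18 libraries held 8.63 to 10.3 M recovered reads, and 13717 to 15911 genes were above 0. Markers of the labelled stage were present: Pou5f1, Nanog, Fgf4, Tdgf1, Gata6, Pdgfra, Cdx2, Eomes, Gata3, Krt8 and Krt18 were at FPKM 1 or more in all 18 libraries, Gata4 in 17 and Sox17 in 16. Of the inner cell mass markers, Sox2 reached FPKM 1 in 5 libraries and Sox7 in 2. Summed Y-linked transcripts passed FPKM 5 in 2 of 5 Taf12 HET, 1 of 5 Taf12 WT, 3 of 4 Taf13 HET and 4 of 4 Taf13 WT embryos, and only autosomal genes were tested for that reason. The 12 cumulus and granulosa markers summed to at most 3.94 FPKM in a Taf12 HET library, 2.69 in a Taf12 WT library, 8.22 in a Taf13 HET library and 3.53 in a Taf13 WT library. The 20 oviduct and uterine markers summed to at most 30.3 and 30.1 FPKM in Taf12 HET and WT libraries. In Taf13 HET and WT libraries the highest sums were 39.6 and 45.4 FPKM. Of these markers, Muc1 and Lif were above 0 in all 18. The Taf12 HET 1 library carried globin transcripts. Its 18 blood and immune markers summed to 501 FPKM, against at most 26.7 FPKM in any of the other 17 libraries. Hba-a1, Hba-a2, Hbb-bs and Hbb-bt held 51, 19, 72 and 13 reads in all 18 libraries together. Ptprc, Adgre1, S100a8, S100a9 and C1qb were at 0 in all 18. The blood and immune markers most often above 0 were Fcgr3 (17 libraries), Cd68 (15) and Cd3e (11).

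The genes named by the labels came first. Taf12 lies on chromosome 4 (chr4:132274375-132295766, plus strand) and Taf13 on chromosome 3 (chr3:108571698-108583222, plus strand) in GENCODE vM21 on build GRCm38. No other annotated gene overlaps either. Their 250 bases upstream of the RefSeq start (GRCm38.p6, chr4:132274125-132274374 and chr3:108571449-108571698, both plus strand) are shown because TFIID itself acts on such sequences. Capitals mark TATAAA, searched on the sense strand within bases 40 to 20 before the start, and CCAAT (the NF-Y box) and GGGCGG (the Sp1 box), searched on both strands over all 250 bases; no marked letters overlap.
Taf12: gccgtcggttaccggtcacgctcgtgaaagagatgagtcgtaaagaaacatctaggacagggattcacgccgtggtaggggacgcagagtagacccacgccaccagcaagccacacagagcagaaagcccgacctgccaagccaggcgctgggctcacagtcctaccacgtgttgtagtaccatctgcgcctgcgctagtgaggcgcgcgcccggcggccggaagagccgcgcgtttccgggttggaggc
Taf13: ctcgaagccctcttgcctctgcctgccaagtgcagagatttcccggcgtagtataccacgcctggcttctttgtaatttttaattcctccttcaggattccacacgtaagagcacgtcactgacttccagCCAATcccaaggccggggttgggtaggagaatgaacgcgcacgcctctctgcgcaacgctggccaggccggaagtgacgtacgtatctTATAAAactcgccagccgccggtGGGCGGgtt
Taf12 held none of the 3 motifs in this window and Taf13 held each 1 time. Of all 32851 RefSeq promoters, 1.87% held TATAAA at that position, 33.9% held CCAAT and 32.7% held GGGCGG. Among the 7876 tested genes with a listed promoter, the shares were 0.80%, 37.3% and 61.2% in that order. A match in letters is not a measured binding site.

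Taf12 measured 36.7, 39.3, 36.1, 49.4 and 47.1 FPKM in the 5 Taf12 HET blastocysts, against 39.5, 50.4, 36.2, 51.3 and 45.8 FPKM in the 5 Taf12 WT blastocysts. The ranges overlapped almost entirely. The means were 41.7 ± 6.15 FPKM in HET and 44.6 ± 6.64 FPKM in WT (SD, n = 5 each), a log2 fold change of -0.09 (SE 0.18) with an adjusted p of 0.970. An exact two-sided permutation test over the 252 splits gave p = 0.452, where 0.00794 is the smallest it can give. The 95% interval of the ratio ran from 0.716 to 1.23, and under 29 alternative settings the lower bound of the log2 fold change was at least -0.57, above the -1 of a 2-fold loss.

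Taf13 measured 25.9, 22.4, 28.1 and 30.4 FPKM in the 4 Taf13 HET blastocysts, against 31.8, 46.7, 42.8 and 28.6 FPKM in the 4 Taf13 WT blastocysts. Here 3 HET embryos lay below every WT embryo, and the highest HET embryo lay between the lowest and the next WT embryo. The means were 26.7 ± 3.4 FPKM in HET and 37.5 ± 8.64 FPKM in WT (SD, n = 4 each), a log2 fold change of -0.46 (SE 0.22) with an adjusted p of 0.911. The exact two-sided permutation test over 70 splits gave p = 0.0571, with 0.0286 the smallest possible. The 95% interval of the ratio ran from 0.53 to 1.01; with 1 library left out at a time the log2 fold change lay between -0.57 and -0.34 and its lower bound reached -1.07, so that a 2-fold loss was inside the interval of some of these fits.

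In the heterozygotes of the other line each transcript was close to its WT mean. Taf13 averaged 32.4 ± 6.80 FPKM in Taf12 HET and 32 ± 7.90 FPKM in Taf12 WT (exact permutation p = 0.857, n = 5 each), and Taf12 averaged 46.1 ± 12.3 FPKM in Taf13 HET and 45.3 ± 7.86 FPKM in Taf13 WT (exact permutation p = 1, n = 4 each). Taf5, a further TFIID subunit and the target of the third line, averaged 23.3 ± 17.2 FPKM in Taf12 HET against 17.5 ± 12.2 FPKM in Taf12 WT, and 39.6 ± 17 FPKM in Taf13 HET against 31.7 ± 15.9 FPKM in Taf13 WT; at 0.414 FPKM a read it rested on 6 to 146 reads in a library. The level of the targeted transcript does not check the genotype labels here: Taf12 stood at 62.2 ± 5.60 FPKM in the 3 libraries labelled Taf12 MUT, above both other groups, and Taf13 at 24.4 ± 10.0 FPKM in the 3 labelled Taf13 MUT. The genotypes are used as labelled. Taf5 was at 0 FPKM in all 4 libraries labelled Taf5 MUT.

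**Figure D1:**
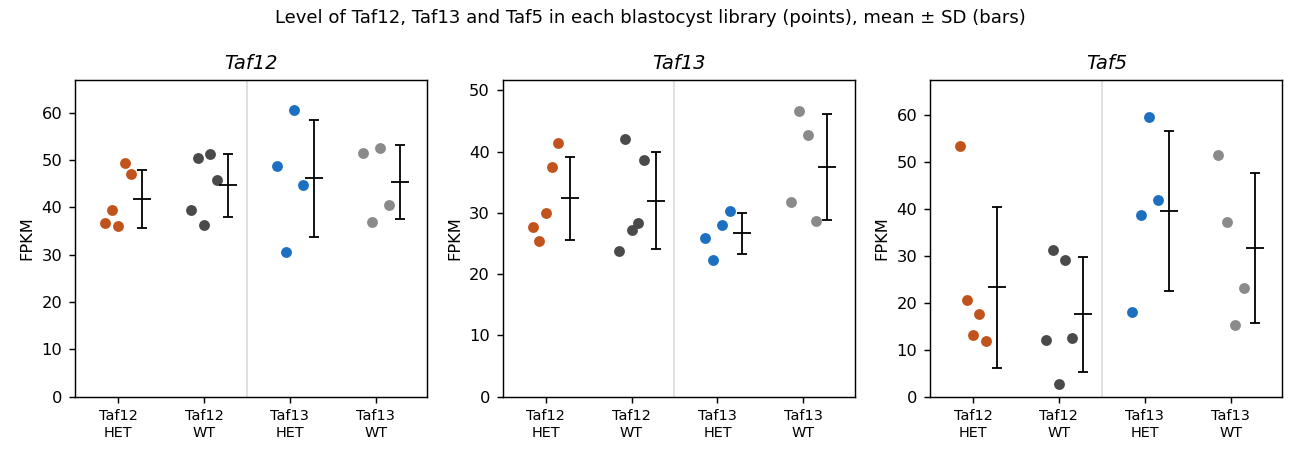
Level in FPKM (vertical axes) of Taf12, Taf13 and Taf5 in each library (points) of the 4 groups, with the mean ± SD beside them. Taf12 HET and WT points overlap for Taf12, while 3 of 4 Taf13 HET points lie below the lowest Taf13 WT point for Taf13.

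Across the transcriptome, no gene passed the test in the heterozygotes. The model of log2(FPKM + 1) on genotype with the line as covariate tested 10360 autosomal genes at FPKM 1 or more in at least 9 of the 18 libraries and called 0 of them (0%) at an adjusted p under 0.05; limma's smallest adjusted p was 0.542. At an unadjusted p under 0.05 there were 619 genes (5.97%), 321 higher in HET (3.1%) and 298 lower (2.88%), and limma-voom on recovered reads called 0 with 641 under that p. Each line by itself also had 0 genes called (0%), with 461 genes under an unadjusted p of 0.05 in the Taf12 line (2.2% of all genes higher, 2.25% lower) and 550 in the Taf13 line (2.52% higher, 2.79% lower); voom called 0 in each, with 504 and 586 genes under that p. The difference between the effects of the lines had 0 called (0%), 424 under an unadjusted p of 0.05, and 0 called with 493 by voom.

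The same model with MUT in place of HET, which used the same WT embryos and only 6 MUT embryos, called 79 genes (0.763%), 32 higher and 47 lower. That count ranged from 31 to 79 with 1 library left out. It was 0 with replicate number as a block, in a fit that kept only replicate numbers present in both MUT and WT. That fit had fewer WT libraries, so the block and the loss of libraries cannot be told apart. Whether same-numbered MUT and WT embryos deviate together was not tested. The 79 calls depend on the fit. By voom the MUT comparison had 82 calls, and 1678 genes were under an unadjusted p of 0.05 by limma. No overlap between the HET and MUT effects is given because they share their WT libraries.

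**Figure D2:**
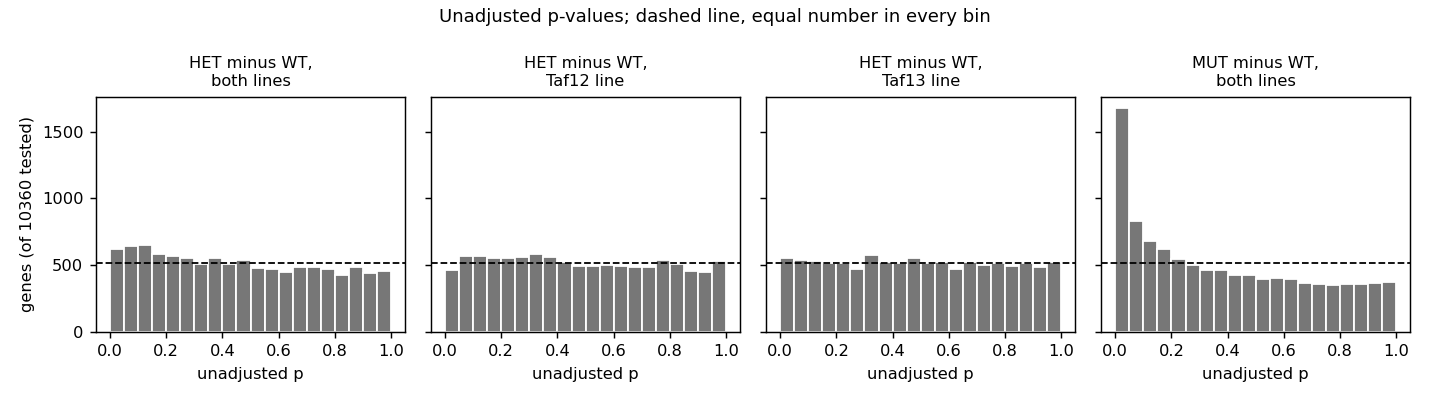
Number of genes (vertical axis, of 10360 tested) by unadjusted p (horizontal axis, bins of width 0.05) for HET minus WT over both lines, in each line, and for MUT minus WT. The first bin holds 619 genes for HET over both lines and 1678 for MUT; the dashed line marks equal bins.

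The 95% intervals describe the differences left possible for single genes. They are not adjusted for the number of genes tested, whereas a call needed an adjusted p, so larger differences could go uncalled. The log2 fold change was over 1 in size for 359 genes (3.47%), and none was called. The median standard error of the log2 fold change was 0.23, and the 95% interval lay wholly within a 2-fold change in either direction for 7212 genes (69.6%) and within 1.5-fold for 4117 (39.7%). The share within 2-fold was 91.2% for genes whose mean was over 100 FPKM and 54.6% for genes under 5 FPKM. The remaining genes could have differed by 2-fold or more on this scale without being outside their interval. The scale, log2(FPKM + 1), compresses low values, so low genes can have differed by more in FPKM than their intervals show. The count within 2-fold moved with the setting: it was 6295 at a pseudocount of 0.1, 8975 at a pseudocount of 5 and 6227 by voom on recovered reads. The Taf12 and Taf13 effects, which share no library, had the same sign in 5653 genes (54.6%), and across genes, which are not independent, their Pearson correlation was 0.0926 and their Spearman correlation 0.118. Of 39 genes under an unadjusted p of 0.05 in both lines, 18 had the same sign.

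The genes named next are those of smallest p, 10 in each direction, and none was called; they are a description of where the largest contrasts sat. Nit2, an omega-amidase of glutamine and asparagine metabolism, measured 64.1, 60.7, 57.2, 59.8 and 59.7 FPKM in Taf12 HET, against 77.1, 80.8, 81.9, 64.8 and 71.1 FPKM in Taf12 WT. Its Taf13 values were 43.9, 49.9, 49.3 and 47.6 FPKM in HET, against 71.7, 83.2, 87.3 and 60.3 FPKM in WT. Every HET embryo lay below every WT embryo of its line. Nit2 alone among the 10360 genes tested had this separation in the same direction in both lines (0.00965% of genes). In the Taf12 line 83 genes (0.801%) were separated, and in the Taf13 line 303 (2.92%). Of all splits of the embryos, a share of 0.00794 separates 5 from 5 and 0.0286 separates 4 from 4. The share in each line was near that of shuffled labels, so the separation is a description and no test. The log2 fold change of Nit2 was -0.46 (SE 0.10, adjusted p 0.542).

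Coq7, which hydroxylates a precursor of ubiquinone, averaged 96.0 ± 5.78 FPKM in Taf12 HET and 131 ± 18 FPKM in Taf12 WT, and 98.8 ± 9.33 FPKM in Taf13 HET and 127 ± 19.3 FPKM in Taf13 WT. In each line the lowest WT embryo, at 99.4 and 102 FPKM, lay among the HET embryos and the others lay above them (log2 fold change -0.40, SE 0.09; adjusted p 0.804). Med13, a subunit of the kinase module that docks on Mediator, measured 77.6, 106, 168, 93.6 and 126 FPKM in Taf12 HET against 194, 158, 150.2, 161 and 176 FPKM in Taf12 WT. Its Taf13 values were 95.6, 51.6, 44.7 and 27.2 FPKM in HET against 85.9, 141, 164 and 142 FPKM in WT. In each line 1 embryo crossed into the range of the other genotype (log2 fold change -0.94, SE 0.22; adjusted p 0.804).

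The other genes lower in HET by this ranking were Sfrp1, a secreted Wnt antagonist, at 12.5 ± 5.53 FPKM in Taf12 HET against 25.8 ± 3.33 FPKM in Taf12 WT and 10.3 ± 7.68 FPKM in Taf13 HET against 25 ± 13.7 FPKM in Taf13 WT, and Prodh, the mitochondrial proline dehydrogenase, at 192 ± 86.8 against 306 ± 86.7 FPKM and 186 ± 61.4 against 301 ± 53 FPKM in the same order. Kctd6, an adaptor for a cullin ubiquitin ligase, averaged 5.03 ± 1.44 FPKM in Taf12 HET against 13.9 ± 6.54 FPKM in Taf12 WT, and 6.90 ± 2.13 FPKM in Taf13 HET against 12.5 ± 5.21 FPKM in Taf13 WT. Slc25a41, Lrrc27, Ythdc2 and Tcea3 completed the set, with log2 fold changes of -1.43, -1.90, -0.91 and -1.20 and adjusted p-values of 0.804 each. Slc25a41 and Lrrc27 passed the FPKM filter through their WT libraries, where they were high, so the filter favoured these contrasts in advance. Lrrc27 was at 0, 0, 0, 0 and 3.78 FPKM in Taf12 HET against 4.66, 4.55, 0, 4.97 and 4.65 FPKM in Taf12 WT. Each value above 0 there rested on 12 to 16 reads. Tcea3 belongs to the TFIIS family, which helps arrested RNA polymerase II resume, and Ythdc2 encodes an RNA helicase that binds N6-methyladenosine.

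Among genes higher in HET, Phactr2, a phosphatase and actin regulator, had the widest contrast. It measured 48.7, 63.3, 105, 41.8 and 125 FPKM in Taf12 HET, against 0, 18.7, 0, 51.6 and 1.20 FPKM in Taf12 WT. Taf13 embryos had 102, 124, 106 and 1.26 FPKM in HET, against 0, 5.42, 0 and 0 FPKM in WT. There was 1 Taf12 WT embryo within the HET range and 1 Taf13 HET embryo within the WT range. Phactr2 passed the FPKM filter through its HET libraries, where it was high. A single read was worth 1.19 FPKM, so these levels rest on 318 reads in all 5 Taf12 HET against 61 in Taf12 WT, and 284 in Taf13 HET against 5 in Taf13 WT (log2 fold change 4.28, SE 0.87; adjusted p 0.542).

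Ap2a1, a subunit of the clathrin adaptor AP-2, measured 69.8, 58.4, 75.7, 40.4 and 49.2 FPKM in Taf12 HET. All lay above the 25.9, 20.7, 20.8, 36.1 and 28.1 FPKM of Taf12 WT, and 0.801% of all genes tested were separated, in either direction, in that line. In the Taf13 line the genotypes overlapped, at 69.0, 25.7, 32.3 and 53.9 FPKM in HET and 56.9, 27.5, 20.8 and 18.1 FPKM in WT (log2 fold change over both lines 0.88, SE 0.24; adjusted p 0.804). Tk1, the cytosolic thymidine kinase of DNA precursor salvage, averaged 865 ± 52.3 FPKM in Taf12 HET and 735 ± 121 FPKM in Taf12 WT, and 941 ± 145 FPKM in Taf13 HET and 706 ± 108 FPKM in Taf13 WT. Coil, the scaffold of Cajal bodies, had the smallest of these differences, a log2 fold change of 0.26 (SE 0.08, adjusted p 0.804). In the Taf13 line its 4 HET embryos, at 17264 to 18876 FPKM, lay above its 4 WT embryos, at 13039 to 16184 FPKM. Of all genes tested 2.92% were separated in that line. Skida1, Tbc1d2b, Ceacam1, Zbtb44 and Epb41l1 had log2 fold changes of 1.27, 2.16, 1.65, 0.61 and 0.46. Of these, Skida1, Tbc1d2b and Ceacam1 passed the FPKM filter through their HET libraries, where they were high. Rps10, a ribosomal protein gene with near-identical processed copies between which reads can be split, had 1.07.

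**Figure D3:**
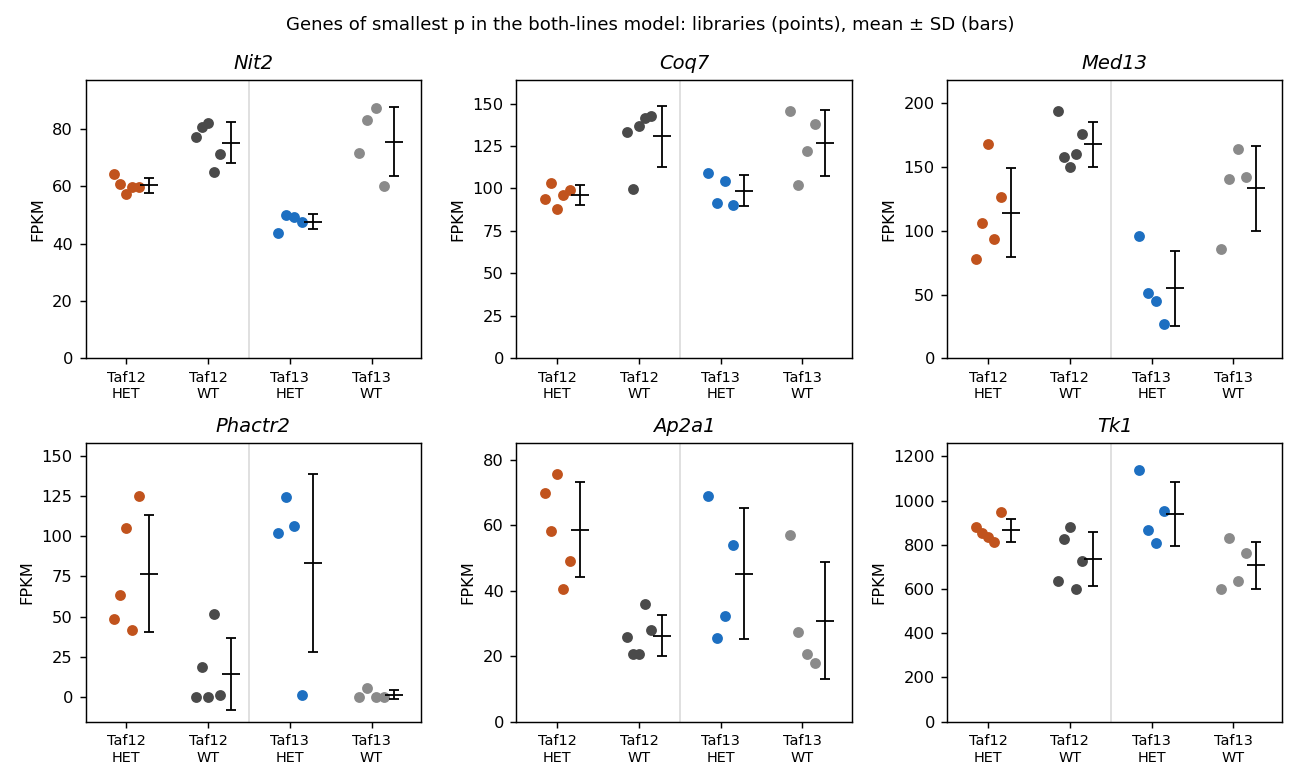
FPKM (vertical axes) of 6 genes of smallest p over both lines in each library (points) of the 4 groups, with the mean ± SD. Nit2 shows no overlap of HET with WT in either line, while at least 1 embryo of another genotype crosses over in 1 line or both for Coq7, Med13, Phactr2, Ap2a1 and Tk1.

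No subunit of the complexes that hold TAF12 and TAF13 passed the test. Of 19 TFIID genes, 13 were tested and 0 called; 6 had a positive and 7 a negative log2 fold change, and their median was -0.01, against 0.0040 over all genes tested. Not tested were Taf1, Taf9b and Taf7l, which are X-linked, and Taf4, Taf9 and Tbpl2, which were under the FPKM limit. Taf6, a histone-fold partner of TAF9, was the only TFIID gene under an unadjusted p of 0.05. It was lower, as were 2.88% of all genes at that p. Taf6 averaged 167 ± 36.4 FPKM in Taf12 HET against 230.2 ± 27.9 FPKM in Taf12 WT, and 194 ± 52 FPKM in Taf13 HET against 233 ± 39.1 FPKM in Taf13 WT (log2 fold change -0.39, SE 0.13, adjusted p 0.804). Of the direct binding partners within TFIID, Taf11 was tested and Taf4 was not. Taf11, the partner of TAF13, had a log2 fold change of 0.06 in the Taf13 line, and Taf4b, a TAF4 paralogue that also binds TAF12, had 0.04 in the Taf12 line. Tbp had -0.11 in the Taf12 line and 0.42 in the Taf13 line.

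Taf10, shared by TFIID and SAGA, differed in sign between the lines. It measured 3.07, 9.28, 8.86, 5.26 and 4.96 FPKM in Taf12 HET against 3.25, 4.05, 3.55, 3.26 and 3.02 FPKM in Taf12 WT, where 4 of 5 HET embryos lay above every WT embryo. In the Taf13 line it measured 0.482, 1.74, 0.458 and 3.42 FPKM in HET against 8.42, 5.68, 5.08 and 2.08 FPKM in WT, where 3 of 4 HET embryos lay below every WT embryo. The difference of the effects was 2.01 on the log2 scale, with an unadjusted p of 0.00198 and an adjusted p of 0.858, and the gene rested on 134 and 73 reads in the Taf12 groups and 26 and 96 reads in the Taf13 groups, HET given first.

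Among 21 tested SAGA genes 0 were called and the median log2 fold change was -0.03; this median and that of TFIID turned positive under 10 and 11 of 29 alternatives. Tada1, the partner of TAF12 in SAGA, averaged 35.7 ± 5.16 FPKM in Taf12 HET and 26 ± 2.02 FPKM in Taf12 WT, and 37.7 ± 2.49 FPKM in Taf13 HET and 35.2 ± 6.13 FPKM in Taf13 WT. Its log2 fold change was 0.44 in the Taf12 line (SE 0.14; adjusted p 0.935) and 0.11 in the Taf13 line. Supt20, a scaffold subunit, and Taf6l, the SAGA counterpart of Taf6, were the other SAGA genes under an unadjusted p of 0.05, with log2 fold changes over both lines of 0.40 and 0.43 and adjusted p-values of 0.804. With Tada1 they made 3 of 21 genes higher at that p, where 3.1% of all genes were.

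Mediator, which bridges activators and RNA polymerase II, had 9 positive and 21 negative log2 fold changes among 30 tested genes and a median of -0.12. Over all genes tested 50.6% were positive. Beside Med13, Med28 and Med6 were under an unadjusted p of 0.05, with log2 fold changes of -0.24 and -0.28. These made 3 of 30 genes lower at that p, where 2.88% of all genes were. RNA polymerase II and its general factors had 9 positive members of 30 with a median of -0.07; Polr2b and Polr2j, both core polymerase subunits, had -0.26 and -0.21. Integrator (15 tested, median 0.0041) and the elongation and pause-release factors (25 tested, median -0.06) completed the transcription lists, and no member of any was called. Ints5 of Integrator measured 111 ± 35.8 FPKM in Taf12 HET and 40.5 ± 8.74 FPKM in Taf12 WT, but 115 ± 40.9 FPKM in Taf13 HET and 99.1 ± 53.9 FPKM in Taf13 WT.

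Cholesterol synthesis and uptake gave the list median farthest from 0 among lists of 10 or more genes, in the Taf12 line and not in the Taf13 line. The pathway runs from acetyl-CoA through HMG-CoA and mevalonate to squalene and sterols, and SREBP2 drives most of its genes together when cell cholesterol is low. Of 28 listed genes, 25 were tested and 0 called. Their median log2 fold change was -0.62 in the Taf12 line, where 23 of 25 were negative, and 0.10 in the Taf13 line, where 16 of 25 were positive; over both lines it was -0.32. The medians over all genes tested were 0.0028, -0.00095 and 0.0040 in that order. In the Taf12 line 7 members were lower at an unadjusted p under 0.05, where 2.25% of all genes were. The list was chosen with earlier results of these embryos known, so it is described and not tested.

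Hmgcs1, which makes HMG-CoA, measured 106, 122, 166, 193 and 221 FPKM in Taf12 HET, against 158, 294, 278, 346 and 217 FPKM in Taf12 WT. In this line 2 HET embryos lay below every WT embryo and the others overlapped. In the Taf13 line it measured 164, 281, 296 and 234 FPKM in HET against 259, 258, 264 and 401 FPKM in WT. The log2 fold change was -0.68 in the Taf12 line (SE 0.25; adjusted p 0.935) and -0.29 in the Taf13 line (SE 0.27; adjusted p 0.976).

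Sqle, the squalene epoxidase, measured 11, 25.3, 38.1, 52.1 and 78.5 FPKM in Taf12 HET, against 56.4, 55.2, 104, 222 and 125 FPKM in Taf12 WT. Of these, 4 of 5 HET embryos lay below every WT embryo. In the Taf13 line the values were 12.4, 110.2, 163 and 88.9 FPKM in HET and 75.8, 63.5, 71.6 and 107 FPKM in WT, so that 1 HET embryo was low and 2 were above every WT embryo.

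Mvd, the last enzyme of mevalonate activation, had the smallest p of the list in the Taf12 line, at 15.1 ± 6.75 FPKM in Taf12 HET and 33.1 ± 12.1 FPKM in Taf12 WT (log2 fold change -1.11, SE 0.38, adjusted p 0.935) and 37.4 ± 19.6 FPKM in Taf13 HET and 27.9 ± 6.56 FPKM in Taf13 WT (0.27, SE 0.43). Cyp51, Sc5d and Idi1 had -1.68, -1.26 and -0.73 in the Taf12 line and 0.12, 0.21 and 0.07 in the Taf13 line. Srebf2, which encodes SREBP2, had -0.17 and 0.50, and its escort Scap 0.36 and -1.20. Ggps1, which diverts isoprenoids to protein prenylation, was the list's member of smallest p in the Taf13 line, at 36.1 ± 11.5 FPKM in Taf13 HET and 21.1 ± 4.59 FPKM in Taf13 WT (log2 fold change 0.73, SE 0.23; adjusted p 0.662), and -0.18 in the Taf12 line.

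The difference between the lines had a median of -0.75 over the 25 genes, with 5 lower in the Taf12 line at an unadjusted p under 0.05, where 1.96% of all genes were, and 0 called. That count moved with single libraries: it was 1 without Taf12 WT 4, without Taf13 HET 3 or with the Y-linked level as a covariate, 2 without Taf12 HET 3 or Taf13 HET 2, 3 without any of Taf12 HET 1, Taf12 HET 2, Taf12 HET 4, Taf13 HET 4 and Taf12 WT 2 in turn, 8 without Taf12 HET 5 and 13 without Taf13 HET 1, while the median stayed between -0.95 and -0.50 under 29 alternatives. By library, the median of the list relative to the WT mean of its line was -0.64, -0.66, -0.79, -0.37 and -0.02 in the 5 Taf12 HET embryos, against -0.24, 0.03, 0.10, 0.39 and -0.01 in Taf12 WT. It was -0.79, 0.48, 0.53 and 0.24 in Taf13 HET, against 0.19, -0.45, 0.02 and 0.24 in Taf13 WT. By this measure 4 Taf12 HET embryos lay below every Taf12 WT embryo, and 1 Taf13 HET embryo was as low as any of them. Without Taf12 HET 1, the library with globin transcripts, the Taf12 median was -0.47 and 5 members were lower at an unadjusted p under 0.05. That count was 3 without Taf12 WT 4 (median -0.46), 4 without Taf12 HET 2 or Taf12 HET 3, and 14 without Taf12 HET 5 (median -0.80), against 7 with all libraries, and 2 to 3 of the 25 genes were positive in each of these fits. With the mitochondrial share of summed FPKM as a covariate it was 14, still with 0 called. The genes of the whole table under that p in the Taf12 line then numbered 699, against 461 without the covariate. Mitochondrial transcripts were 1.58 to 2.69% of recovered reads in Taf12 HET and 2.17 to 2.59% in Taf12 WT. This share of reads is not the covariate itself. The Taf13 median did not keep its sign: it was -0.15 without Taf13 WT 2 and -0.08 without Taf13 HET 3, each with 10 of 25 genes positive, and 0.35 without Taf13 HET 1, with 21 of 25 positive, when the median over both lines was -0.15.

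The upstream sequences of Hmgcs1 (chr13:119690101-119690350, plus strand) and Cyp51 (chr5:4104698-4104947, minus strand, written 5′ to 3′ along the gene) from RefSeq on GRCm38.p6 are shown as the list's members of smallest p over both lines that had an entry. Capitals mark TCACNCCAC, a core of the sterol response element read by SREBP, and CCAAT, each searched on both strands over 250 bases with no overlap.
Hmgcs1: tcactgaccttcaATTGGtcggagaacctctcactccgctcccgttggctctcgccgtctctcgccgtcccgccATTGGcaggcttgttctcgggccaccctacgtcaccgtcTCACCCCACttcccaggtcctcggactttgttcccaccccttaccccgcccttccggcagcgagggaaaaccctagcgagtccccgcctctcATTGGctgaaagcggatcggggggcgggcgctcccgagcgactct
Cyp51: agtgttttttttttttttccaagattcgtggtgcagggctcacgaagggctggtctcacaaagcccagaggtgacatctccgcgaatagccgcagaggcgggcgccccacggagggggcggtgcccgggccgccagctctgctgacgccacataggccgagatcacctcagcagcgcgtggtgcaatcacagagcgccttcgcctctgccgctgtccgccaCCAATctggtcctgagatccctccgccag
Hmgcs1 held 1 sterol response core and 3 CCAAT boxes, and Cyp51 held 1 CCAAT box and no match to the core. The core was in 1.05% of all RefSeq promoters and CCAAT in 33.9%. Among tested genes with a listed promoter the shares were 0.952% and 37.3%. A promoter was listed for 18 of the 25 tested genes, too few for a count over the list. It was listed for 76.1% of all tested symbols, so the shares leave out the other tested genes. Motifs were not tested against fold changes.

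**Figure D4:**
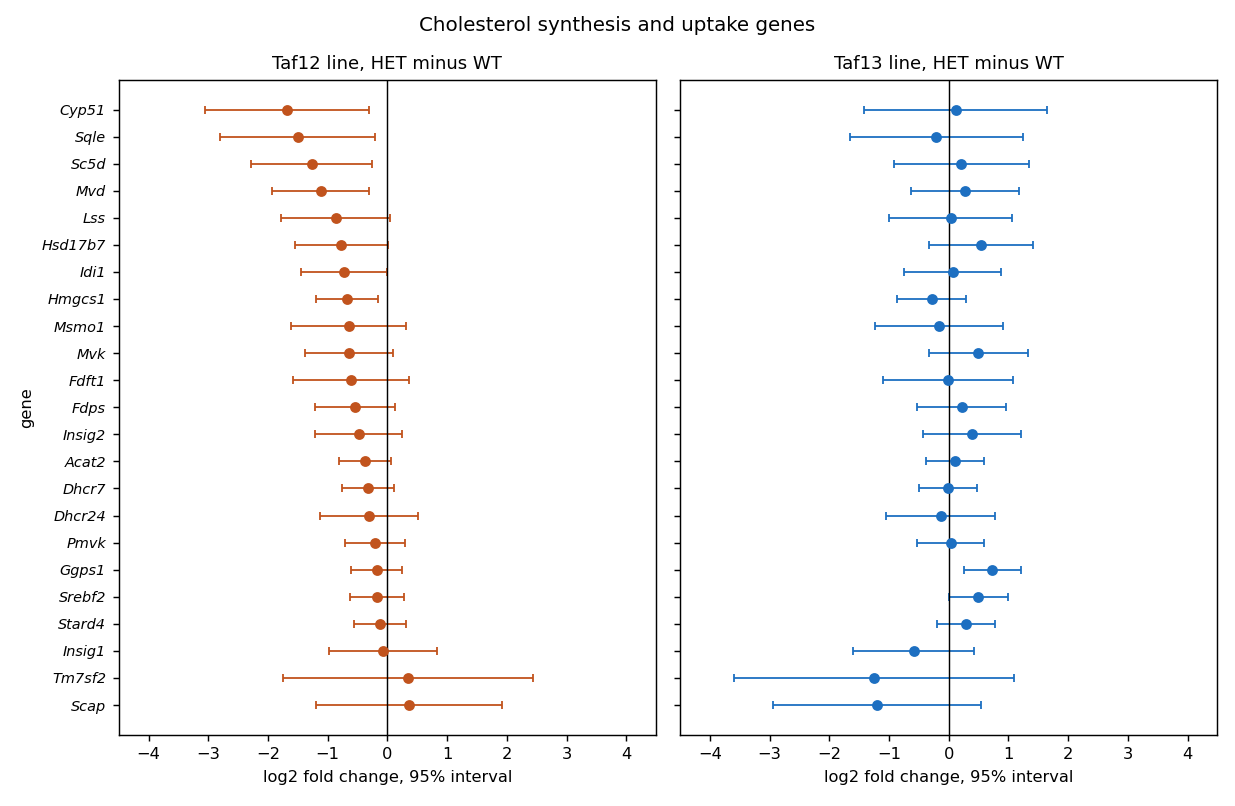
Log2 fold change, HET minus WT, with its 95% interval (horizontal axes) of 23 of the 25 tested cholesterol genes (rows, ordered by the Taf12 value) in the Taf12 line on the left and the Taf13 line on the right. In the Taf12 line 21 of 23 points lie below 0, in the Taf13 line 9 of 23, and no gene was called in either.

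Lineage lists were compared next. Of 33 tested trophectoderm genes 23 had a positive log2 fold change, with a median of 0.17 over both lines, 0.14 in the Taf12 line and 0.17 in the Taf13 line, and 0 called; 4 were higher and 1 lower at an unadjusted p under 0.05, where 3.1% of all genes were higher and 2.88% lower. Cdx2, the transcription factor that specifies trophectoderm, measured 152, 171, 209, 157 and 114 FPKM in Taf12 HET, against 149.6, 145, 99.4, 98.2 and 139.6 FPKM in Taf12 WT. Taf13 embryos had 191, 167, 213 and 179 FPKM in HET. All lay above the 120.3, 152, 124 and 155 FPKM of WT, and 2.92% of all genes tested were separated, in either direction, in that line. In the Taf12 line 4 of 5 HET embryos were above every Taf12 WT embryo too (log2 fold change over both lines 0.39, SE 0.12; adjusted p 0.804). Gata3, which acts beside Cdx2, had 0.36 (SE 0.16; adjusted p 0.804), and Eomes 0.55 (SE 0.35).

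Id2, a helix-loop-helix inhibitor found in outer cells, averaged 3141 ± 1389 FPKM in Taf12 HET and 1894 ± 747 FPKM in Taf12 WT, and 5255 ± 725 FPKM in Taf13 HET and 3362 ± 1652 FPKM in Taf13 WT (log2 fold change 0.72, SE 0.23; adjusted p 0.804). The keratins differed in sign: Krt8 and Krt18, the main pair of the trophectoderm, had log2 fold changes of 0.18 and 0.25, while Krt7 had -1.32 (SE 0.38; adjusted p 0.804), at 16.4 ± 7.24 FPKM in Taf12 HET against 34.4 ± 11.5 FPKM in Taf12 WT and 9.93 ± 6.31 FPKM in Taf13 HET against 29.7 ± 18 FPKM in Taf13 WT. The 27 tested epiblast and naive pluripotency genes had a median of -0.09 with 13 positive, and Pou5f1 and Nanog had -0.23 and -0.09. The 18 primitive endoderm genes had a median of 0.11 with 11 positive; Gata6 had -0.12 and Pdgfra -0.44. No member of either list was called.

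Immediate early genes, induced within minutes by growth factors, stress or handling, were all positive over both lines among the 11 tested of 20 listed. Their median was 0.24, and 3 were higher at an unadjusted p under 0.05, where 3.1% of all genes were. Fos measured 2.69, 7.39, 3.54, 0.646 and 5.57 FPKM in Taf12 HET against 0, 3.68, 0, 6.48 and 0 FPKM in Taf12 WT. Taf13 embryos had 4.06, 8.60, 11.3 and 0 FPKM in HET against 0, 1.42, 0 and 0 FPKM in WT. The genotypes overlapped in both lines, and Fos, Junb and Fosl2 had log2 fold changes of 1.49, 0.74 and 0.55 with adjusted p-values of 0.804. Fos passed the FPKM filter through its HET libraries, where it was high, so the filter favoured its contrast in advance. With other settings 8 to 11 of the 11 genes were positive and the median ran from 0.18 to 0.48. How long each embryo was handled is not in the labels, and its part was not tested.

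Growth, energy and stress lists had medians between -0.17 and 0.08. Nuclear genes of oxidative phosphorylation had 57 of 70 positive with a median of 0.07, and 70 of 70 had intervals within 2-fold. Ribosome biogenesis genes had 6 of 44 positive with a median of -0.08; Polr1c, a subunit of polymerases I and III, Taf1d, of the polymerase I factor SL1, and Wdr12 had -0.30, -0.32 and -0.24. Cytosolic ribosomal proteins had 24 of 76 positive with a median of -0.03. p53 targets (26 tested) had a median of -0.17, DNA replication genes (40 tested) -0.07, mitosis genes (35 tested) -0.0042, glycolysis (17 tested) 0.08, the integrated stress response (19 tested) 0.07, heat shock and chaperones (24 tested) -0.06 and imprinted genes (20 tested) -0.14. None of their members was called. Against 50.6% of all genes positive, members of a list share regulators and embryos, so these counts are no test.

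**Figure D5:**
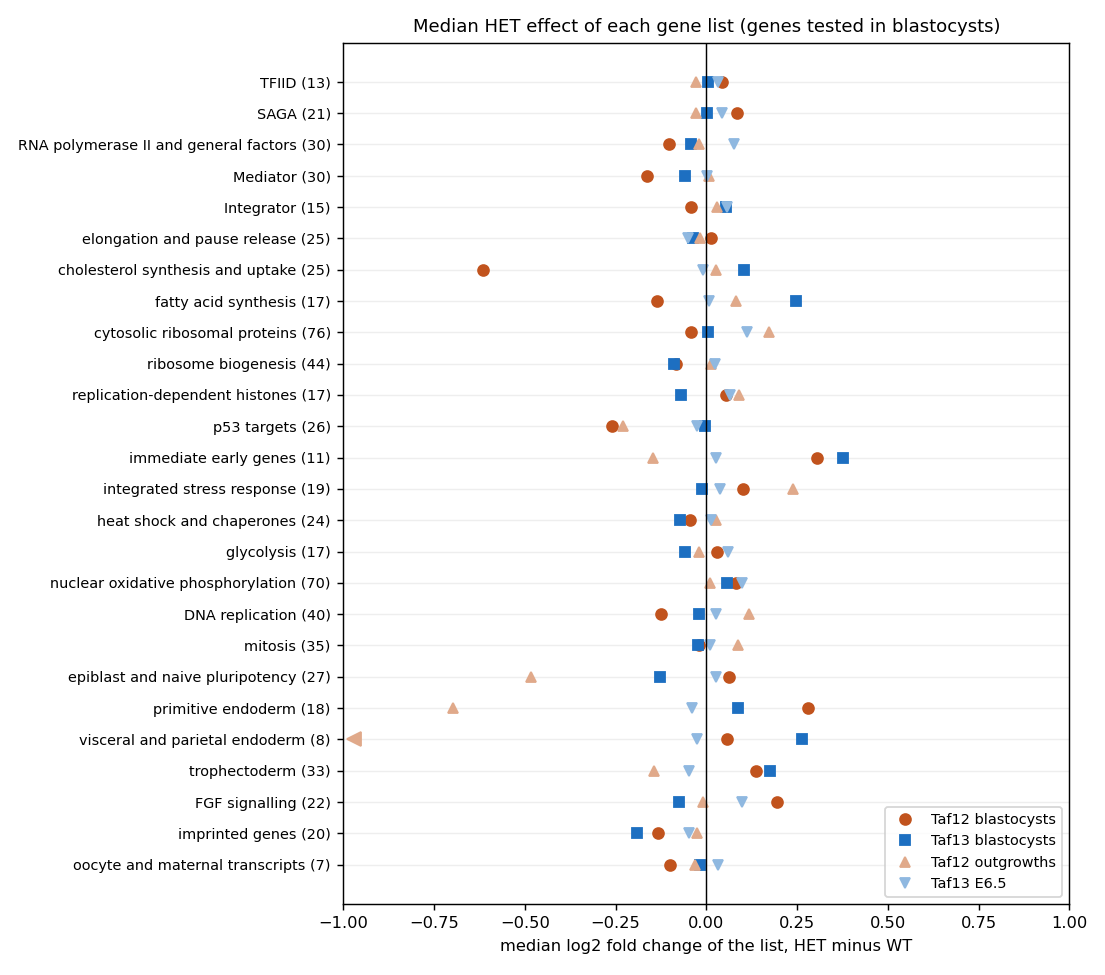
Median log2 fold change of each gene list, HET minus WT (horizontal axis), in Taf12 and Taf13 blastocysts, Taf12 outgrowths and Taf13 E6.5 embryos, with the number of genes tested in blastocysts in brackets. Cholesterol stands at -0.62 in Taf12 blastocysts and at 0.10, 0.03 and -0.01 in the other 3, and the arrow marks a value of -2.29 beyond the axis.

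The genes of smallest p in a single line were looked at next. In the Taf12 line these were Lca5l, at 0 FPKM in all 5 HET embryos against 13.4 ± 8.92 FPKM in WT (0 against 90 reads; adjusted p 0.607), Kntc1, a kinetochore protein, at 470 ± 85.3 FPKM in HET against 254 ± 39.3 FPKM in WT (adjusted p 0.931), and Cyb5a, the cytochrome b5 that serves sterol and fatty acid enzymes, at 253 ± 43.1 FPKM in HET against 433 ± 92.6 FPKM in WT (adjusted p 0.931). In the Taf13 line, beside Nit2, they were Dusp8, a phosphatase of stress kinases, at 77.4 ± 17.4 FPKM in HET and 0 FPKM in all 4 WT embryos (216 against 0 reads; adjusted p 0.477), and Zfp346, an RNA-binding zinc finger protein, at 11.4 ± 2.86 FPKM in HET against 45.1 ± 24 FPKM in WT (adjusted p 0.477). In the other line Dusp8 was at 34.4 ± 57.8 FPKM in Taf12 HET and 17.1 ± 12.6 FPKM in Taf12 WT. Lca5l passed the FPKM filter only through Taf12 WT and Dusp8 only through Taf13 HET, the groups where they were high. The filter thus favoured these 2 contrasts in advance.

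For the difference between the lines, the smallest p belonged to Serpinb1c, a serine protease inhibitor of the clade B family, at 0.402 ± 0.501 FPKM in Taf12 HET against 7.57 ± 4.48 FPKM in Taf12 WT and 12.9 ± 5.91 FPKM in Taf13 HET against 2.41 ± 3.08 FPKM in Taf13 WT (difference of log2 fold changes -4.91, SE 0.85; adjusted p 0.270). Without the Taf13 WT 2 library its difference was -5.46 with an adjusted p of 0.0381. Serpinb1c too passed the FPKM filter only with Taf12 WT and Taf13 HET, the groups where it was high. Zfp346 and Phkb, a subunit of phosphorylase kinase, followed with differences of 2.45 and 2.80 and adjusted p-values of 0.399 and 0.858.

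Genes next to the targeted loci were looked at after the other results, since an altered allele can reach its neighbours. Of the 10 tested genes nearest to Taf12 (5 on each side in GENCODE vM21), 6 were positive in the Taf12 line, with log2 fold changes from -0.40 to 0.62. Epb41, of the membrane skeleton, was the only one under an unadjusted p of 0.05, at 37.4 ± 12.4 FPKM in HET and 23.4 ± 5.04 FPKM in WT (adjusted p 0.935). Of the 10 nearest to Taf13, 4 were positive in the Taf13 line, from -0.54 to 0.51, and none was under that p.

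Other heterozygous embryos of the lines, which share no library with the blastocysts, had no called gene either. Taf12 outgrowths had 0 of 9404 genes called (0%) by limma, with a smallest adjusted p of 0.0508, 709 under an unadjusted p of 0.05, and 0 called by voom with 732 under that p. Taf13 embryos at E6.5 had 0 of 9554 called (0%), with 80 under an unadjusted p of 0.05, and 0 called by voom with 67. Taf12 averaged 21.1 ± 4.73 FPKM in 3 HET outgrowths and 23.2 ± 3.70 FPKM in 4 WT outgrowths, and Taf13 averaged 27.3 ± 8.99 FPKM in 9 HET and 32.4 ± 10.3 FPKM in 4 WT embryos at E6.5.

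The genes and lists described above had these values in those embryos. Nit2 had log2 fold changes of 0.21 in outgrowths and 0.07 at E6.5, Coq7 -0.13 and -0.0014, Med13 0.29 and -0.08, Phactr2 -1.22 and -0.58, and Cdx2 -0.75 and -0.09. The cholesterol list had medians of 0.03 in outgrowths and -0.01 at E6.5, the immediate early list -0.15 and 0.03, and the trophectoderm list -0.14 and -0.05. The widest list medians in outgrowths were those of visceral and parietal endoderm (-2.29, 7 tested) and primitive endoderm (-0.70, with 0 of 18 positive), neither with a gene called, and in the blastocysts of that line the same lists had 0.06 and 0.28.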

How the data were processed

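Single embryos were sequenced as low-input RNA-seq libraries. The authors deposited FPKM values per gene and library, and for each line and stage a mean normalized count per gene (counts divided by size factors), used here only to recover reads. Per the submitters' processing notes, reads went through FastQC 0.11.9, DESeq2 1.36.0, R 4.2.1, Trimmomatic 0.39 and STAR 2.7.6a (an unordered list) on build GRCm39. The counter used and whether it read strand: not given in the sources used here. Whole reads were recovered from the FPKM steps, scaled by these means: 99.1% of values up to 500 reads came within 0.05 of a whole read (97.9% in the lowest library).

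Autosomal genes with FPKM 1 or more in at least 9 of 18 libraries were fitted as log2(FPKM + 1) in limma 3.58.1 (R 4.3.3) with trend and robust moderation, on genotype with the line as covariate. Fold changes are on that scale, which understates low genes. A gene near the limit can pass the filter on the libraries of the group where it is high. A gene was called at a two-sided Benjamini-Hochberg adjusted p under 0.05 over all genes tested. Named were Taf5, Taf12 and Taf13, the 10 genes of smallest p in each direction over both lines and the 3 of smallest p for each line and for the difference (a mean of 5 FPKM or more in a group of at least 1 line, no predicted or clone names), up to 3 per list, and members of the TFIID and cholesterol lists (2 of the cholesterol list count in its totals and are not reported here by name); other lineage markers named come from a fixed marker list, and the neighbouring genes were added after other results were seen. Outgrowths and E6.5 embryos were filtered over their own libraries, and scripts were tested on simulated data. Labels share replicate numbers: of 9 same-numbered pairs 2 had a correlation of deviations over 0.1, so the main fit has no block. Levels are not compared between genes. Members and gene lists were chosen with earlier results of these data known.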

Additional observations from a re-analysis of the deposited data

Results flagged for a closer look

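In 16 of 164 groups checked (41 values in 4 groups each) the highest or lowest library stood apart from the others by Dixon's criterion, where chance flags about 5%, or 8.2 groups. The Taf12 HET 1 library had 53.35 FPKM of Taf5 (the others 11.8 to 20.59), 343.4 FPKM of Prodh (121.8 to 173.7) and a blood and immune marker sum of 500.6 FPKM (1.864 to 18.95). Other Taf12 HET libraries that stood apart were HET 5 for Cyp51, at 7.477 FPKM (0.5871 to 2.223), and HET 4 for Rps10, at 26.61 FPKM (35.12 to 38.55), and for the cumulus and granulosa sum, at 3.938 FPKM (0 to 0.9446). Among Taf12 WT libraries, WT 2 had 99.45 FPKM of Coq7 (133.4 to 142.9) and WT 1 an oviduct and uterine marker sum of 30.06 FPKM (4.541 to 8.798).

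Taf13 HET 2 had 53.31 FPKM of Ggps1 (29.51 to 31.9) and a cumulus and granulosa sum of 8.219 FPKM (0 to 0.985). Taf13 WT 2 had 1.418 FPKM of Fos and 5.421 FPKM of Phactr2, both at 0 in the other 3 WT libraries, and a trophectoderm list level of 0.2439 on the log2 scale (-0.1279 to -0.1084). Taf13 WT 1 had 222.4 FPKM of Prodh (315.8 to 333.2) and a blood and immune marker sum of 26.73 FPKM (5.701 to 8.915). Taf13 WT 4 had 400.9 FPKM of Hmgcs1 (258.2 to 264). The part of these libraries in the differences between genotypes was not tested beyond leaving each out in turn.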

How the results depend on the processing

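Alternatives changed the pseudocount, the filter, the chromosomes tested, moderation, centring, the Y-linked or mitochondrial covariate, the use of recovered reads, the block, or left out 1 library. The HET counts stayed at 0 except as follows. Without a filter the Taf13 line had 1 gene (C230014O12Rik, log2 fold change -0.29, adjusted p 0.0148). Of the 25267 genes then tested, 20177 had intervals within 2-fold. The log2(FPKM + 1) scale compresses low values, so that count overstates what is bounded for low genes. At a pseudocount of 0.1 outgrowths had 1 gene (Zfp7, -1.77, adjusted p 0.0498). Leaving out 1 library at a time gave 0 to 1 gene over both lines (9230009I02Rik, -1.69, adjusted p 0.00138, without Taf12 WT 3), 0 in the Taf12 line, 0 to 1 in the Taf13 line (Zfp184, 4.48, adjusted p 0.000436, without Taf13 WT 3) and 0 to 1 for the difference (Serpinb1c, -5.46, adjusted p 0.0381, without Taf13 WT 2; Zfp184, -4.67, adjusted p 0.00774, without Taf13 WT 3). MUT calls ranged from 31 to 79. The causes were not tested.

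Most same-numbered HET and WT libraries did not deviate together (r from -0.0659 to 0.287 over 9 pairs). The 2 exceptions were Taf12 pairs 1 and 5 (r 0.287 and 0.215), each best with its own number. With replicate number as a block, HET called 0 genes over both lines, 0 in each line and 0 for the difference. Over both lines 753 genes were then at an unadjusted p under 0.05, against 619 without the block. MUT called 0 with the block against 79 without it. The MUT block fit kept only replicate numbers present in both MUT and WT, and so had fewer WT libraries.

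Of 754 list medians over both lines under alternatives, 690 kept their sign and 64 turned, in 10 of 26 lists: Integrator, TFIID, fatty acid synthesis, SAGA, the integrated stress response, mitosis, oocyte transcripts, FGF signalling, ribosomal proteins and elongation. Their medians with all libraries were at most 0.109 from 0. The cholesterol median kept its sign over both lines and in the Taf12 line, and turned in the Taf13 line without Taf13 WT 2 or Taf13 HET 3. Of the named genes, 27 values turned sign, all with adjusted p-values of 0.908 or more: Insig2 at 0.0665 by voom, and, leaving out 1 library, Insig2 (range -0.231 to 0.0149), Lif (-0.13 to 0.36), Pmvk (-0.15 to 0.0074), Scap (-0.50 to 0.21), Stard4 (-0.0236 to 0.13), Taf12 (-0.113 to 0.0173), Taf8 (-0.187 to 0.0162), Tbpl1 (-0.106 to 0.0479) and Tm7sf2 (-0.68 to 0.10).

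With 4 or 5 embryos a group, a difference under about 2-fold could not be resolved for many genes, above all those under 20 FPKM. Fold changes over 2-fold also went uncalled.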
